A study of Rattus norvegicus and Mus musculus with 14 samples.

Results

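The 7 genes described here encode building blocks of the neuronal cytoskeleton or proteins that bind it. They are the tubulin genes Tuba1a and Tubb5, the beta-actin gene Actb, the neurofilament light chain gene Nefl, and the microtubule-binding genes Macf1, Map7d1 and Clip2. The members were all probes whose single gene symbol in the platform annotation was one of these 7, which gave 11 probes among 384 probes with a single symbol (342 genes) and 1152 probes on the array. Actb had 5 probes and each other gene had 1, so the Actb probes are repeat measures of a single gene.

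Total RNA was measured on a cDNA array in 14 samples, 12 from rat embryonic cortical neuron cultures and 2 from mouse brain cortex. The rat arrays form a MEK set and a NOS set, each run as experiments 1 and 2 with 1 array per treatment. In the MEK set the cultures received NMDA with PD98059, an inhibitor of the kinase MEK, or NMDA alone, or a control solution named CSS in the labels. In the NOS set they received NMDA with nitroarginine, an inhibitor of nitric oxide synthases, or NMDA alone, or the same kind of control. NMDA activates one class of glutamate receptor, through which calcium enters neurons. The labels give no dose, exposure time or culture age, and no inhibitor was given without NMDA. The mouse samples were cortex of an adult nNOS (neuronal nitric oxide synthase) knockout and cortex of an adult wild-type littermate, both c57bl, with 1 array each, and the labels do not describe the knockout allele. Mouse RNA was thus read on probes that carry rat gene names.

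Each value is a Z-score, the probe's distance from the mean of its own array in units of about 1 SD over all probes. A Z-score has no fold change, and a change shared by all probes of an array would not show. Levels of different probes cannot be ranked against each other. Each rat group had n = 2 arrays. Because the labels name no separate cultures, the spread between those arrays may be technical. As the RNA came from whole cultures and tissue, fewer cells of a type and less RNA per cell cannot be told apart.

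Neurons build their processes from microtubules, which are polymers of alpha- and beta-tubulin pairs, from neurofilaments, which widen axons, and from actin filaments, which shape growth cones and dendritic spines. Microtubule-binding proteins couple these filaments to each other, to motors and to growing ends. Calcium that enters through NMDA receptors is known to remodel this scaffold, and strong activation can break it down.

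Some arrays stood apart. The column of MEK experiment 1 control lay 1 row off its probes and was moved down by 1 row, after which it correlated with the other MEK arrays at 0.858 to 0.867 across probes, while those 5 arrays correlated with each other at 0.971 to 0.995. The first probe on the array, Clip2, has no value in that control. The NOS experiment 2 arrays correlated with those of NOS experiment 1 at 0.454 to 0.617. Of the cell type markers listed for this study, the array named 3 of 14 for neurons (Uchl1, Hpca, Stmn2), 2 of 9 for astrocytes (Gfap, Glul), 1 of 7 for microglia (Csf1r), 3 of 8 for endothelial cells and fibroblasts (Fn1, Col1a2, Fbn1), and 0 for oligodendrocytes and dividing precursors. The labelled cell type could not be checked further, since a Z-score does not show whether a gene is present.

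Promoter windows of 300 bases around the transcription start were held by RefSeq (rat build GRCr8) for 5 of the 7 genes, Tuba1a, Tubb5, Macf1, Map7d1 and Clip2. The windows of the 2 tubulin genes are shown because Tuba1a gave the steadiest NMDA difference of the members and Tubb5 encodes a beta subunit of the same kind of polymer, a choice made after their values were seen. Tuba1a lies at chr7:131995770-131996069 on the minus strand and Tubb5 at chr20:2917327-2917626 on the plus strand, each printed 5′ to 3′ along its gene. Capitals mark 3 motifs, matched on either strand. The first is TATATAA, a form of the TATA box. The second is CCAAT, the CAAT box. The third is GGGCGG, the GC box, which appears as its reverse complement where it lies on the other strand.
Tuba1a: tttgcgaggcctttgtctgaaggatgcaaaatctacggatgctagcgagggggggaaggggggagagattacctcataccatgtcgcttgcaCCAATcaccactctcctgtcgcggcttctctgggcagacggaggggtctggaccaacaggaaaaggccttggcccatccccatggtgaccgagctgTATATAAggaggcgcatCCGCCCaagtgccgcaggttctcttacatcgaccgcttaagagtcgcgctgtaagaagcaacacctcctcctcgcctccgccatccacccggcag
Tubb5: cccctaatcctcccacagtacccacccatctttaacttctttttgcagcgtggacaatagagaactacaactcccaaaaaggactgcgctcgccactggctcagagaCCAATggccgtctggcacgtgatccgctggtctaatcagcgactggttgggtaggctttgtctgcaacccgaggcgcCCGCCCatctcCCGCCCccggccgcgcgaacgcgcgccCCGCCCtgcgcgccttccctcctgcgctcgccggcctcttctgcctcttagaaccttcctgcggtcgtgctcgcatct
The Tuba1a window held TATATAA at positions -62 to -56 from the start, CCAAT at -158 to -154 and a GC box at -45 to -40, and its GC content was 58.3%. The Tubb5 window held CCAAT at -143 to -139 and 3 GC boxes, with no TATATAA, and its GC content was 62.3%. Among 33469 rat promoter windows of the same length, 3.93% held TATATAA, 37.5% held CCAAT and 33.1% held GGGCGG. Neither TATAAA (14.2% of windows), nor TGACG (21.2%), nor the full cyclic AMP response element TGACGTCA, which contains TGACG (1.83%), nor a CArG box (1.64%) was matched in any of the 5 windows. The Macf1, Map7d1 and Clip2 windows had GC contents of 79.0%, 71.3% and 72.3% and held 7, 3 and 2 GC boxes. A match is a description of letters and says nothing of a factor's binding.

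**Figure D1:**
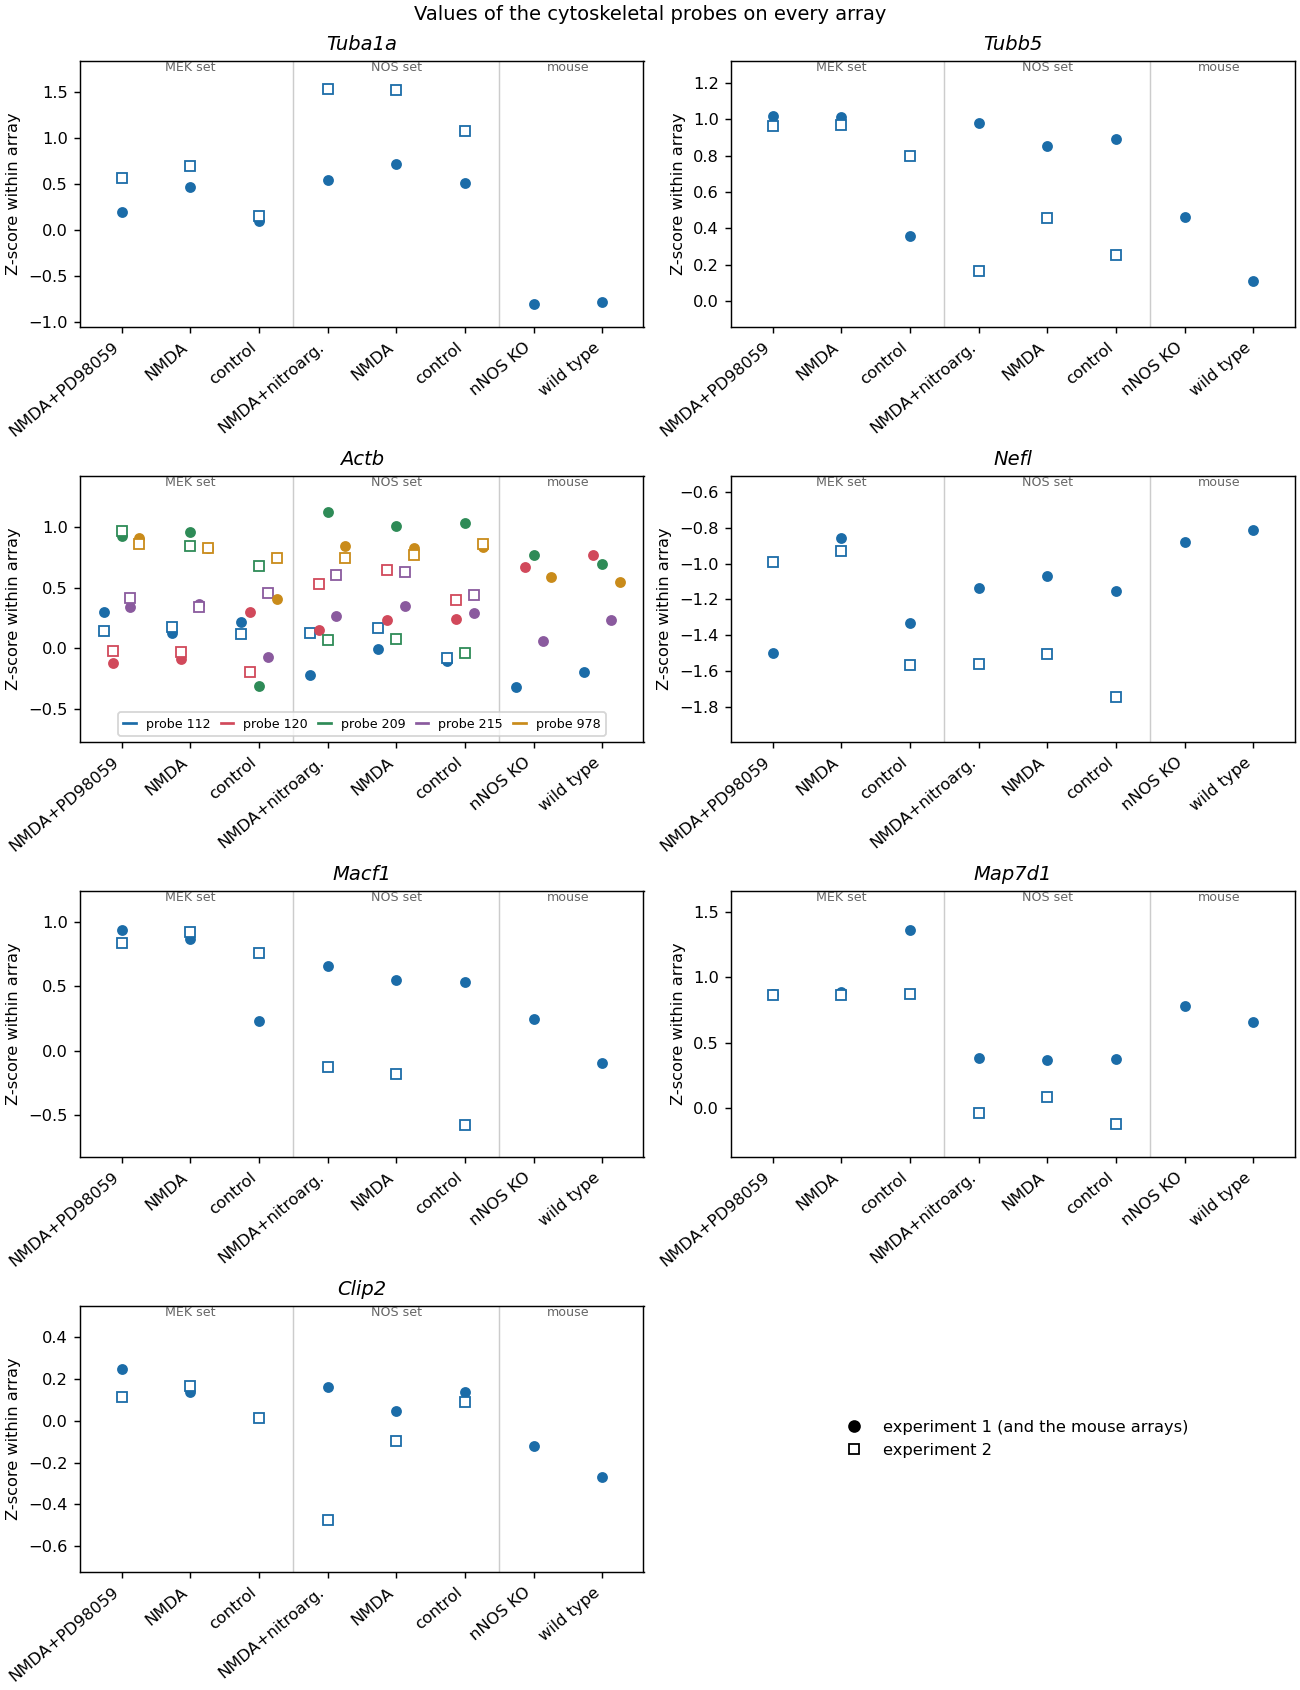
Z-score within the array (vertical axis) of each cytoskeletal probe in the 8 groups (horizontal axis), with filled circles for experiment 1 and the mouse arrays, open squares for experiment 2, and 1 panel per gene; the 5 Actb probes have a colour each. Tuba1a runs from 0.09 to 1.53 in the rat cultures and lies at -0.81 and -0.78 in the mouse cortices, and several genes separate the NOS experiments more than the treatments.

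The comparison of NMDA with control asks what receptor activation did to these transcripts in the cultures. Tuba1a, the alpha-tubulin most used by growing neurons, and Nefl, the subunit on which neurofilaments are built, were higher with NMDA than with control in all 4 experiments. Their mean differences were 0.39 ± 0.14 and 0.36 ± 0.24 Z units (SD, n = 4 experiments). Macf1, a large linker of microtubules to actin, was also higher in all 4, by 0.30 ± 0.27. The other 7 probes measured in all 4 experiments, those of Actb, Tubb5 and Map7d1, were on both sides of 0. No member passed the limma test.

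Of the 10 member probes measured in every experiment, 3 were higher with NMDA in all 4, beside 10.2% of all probes, and 0 were lower in all 4, beside 4.60% of all probes. Without MEK experiment 1, whose control is the moved column, 4 of 11 member probes were higher in the 3 remaining experiments (the same 3 and Actb probe 112), beside 16.4% of all probes, and 0 were lower, beside 9.20%. In the MEK set, 6 of 10 member probes were higher in both experiments (29.3% of all probes) and 1 was lower (24.4%). In the NOS set, 5 of 11 were higher in both (26.4%) and 2 were lower (23.8%). By experiment, the median difference of the member probes was 0.43 in MEK experiment 1, 0.16 in MEK experiment 2, -0.01 in NOS experiment 1 and 0.21 in NOS experiment 2. The medians of all probes in the same order were -0.02, 0.04, -0.01 and 0.08. The SD of the difference over all probes was 0.515, 0.241, 0.133 and 0.444, so a given number of Z units is a larger departure in NOS experiment 1 than in MEK experiment 1.

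Tuba1a was at 0.46 with NMDA against 0.09 with control in MEK experiment 1, and at 0.69 with NMDA against 0.15 with control in MEK experiment 2. In the NOS set it was at 0.72 with NMDA against 0.51 with control in experiment 1, and at 1.52 with NMDA against 1.07 with control in experiment 2. Within the MEK set both NMDA arrays were above both control arrays, while in the NOS set the experiments differed so much that the NMDA and control ranges overlapped. The 4 differences, 0.37, 0.54, 0.21 and 0.45, were larger than those of 80.6%, 99.5%, 92.8% and 86.4% of all probes in their experiments. Over both sets limma gave a difference of 0.39 (SE 0.28) for Tuba1a, with adjusted p = 0.9997 over 1152 probes. With the experiment as a block the SE was 0.11 and adjusted p = 0.384, which did not pass either.

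Nefl was at -0.86 with NMDA against -1.33 with control in MEK experiment 1, and at -0.93 with NMDA against -1.56 with control in MEK experiment 2. In NOS experiment 1 it was at -1.07 with NMDA against -1.15 with control, and in NOS experiment 2 at -1.50 with NMDA against -1.74 with control. Again both MEK NMDA arrays lay above both MEK controls, and the NOS ranges overlapped. All these scores were low on their arrays, with the rat values of Nefl at percentiles 1.65 to 24.9 of all probes. The 4 differences of 0.47, 0.64, 0.08 and 0.24 exceeded those of 85.5%, 99.8%, 78.0% and 67.4% of all probes. The limma difference over both sets was 0.36 (SE 0.22, adjusted p = 0.9997), and with the experiment as a block the SE was 0.13 and adjusted p = 0.421. The NMDA difference of Nefl was smaller in the NOS set than in the MEK set by 0.39 (SE 0.43), which did not pass in limma (adjusted p = 0.9994).

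Macf1 was at 0.87 with NMDA against 0.23 with control in MEK experiment 1 and at 0.92 with NMDA against 0.76 with control in MEK experiment 2. It was at 0.55 with NMDA against 0.53 with control in NOS experiment 1 and at -0.18 with NMDA against -0.58 with control in NOS experiment 2. Its smallest difference, 0.02 in NOS experiment 1, is larger than that of only 59.9% of all probes there, and its largest, 0.64, rests on the moved control. Leaving out MEK experiment 1, the mean difference was 0.19 ± 0.19 (SD, n = 3). The limma value over both sets was 0.30 (SE 0.30, adjusted p = 0.9997), and with the experiment as a block the SE was 0.13 and adjusted p = 0.436.

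Tubb5, a beta-tubulin gene expressed in many dividing and embryonic cells, was at 1.01 with NMDA against 0.36 with control in MEK experiment 1 and at 0.97 with NMDA against 0.80 with control in MEK experiment 2. In the NOS set it was at 0.85 with NMDA against 0.89 with control in experiment 1 and at 0.46 with NMDA against 0.25 with control in experiment 2. The NOS experiments thus had opposite signs. Map7d1, of the family that recruits kinesin to microtubules, was at 0.89 and 0.86 with NMDA in the MEK set, against 1.36 and 0.88 with control. In the NOS set it was at 0.37 and 0.08 with NMDA against 0.37 and -0.12 with control. Outside the moved control its 5 MEK values lay within 0.86 to 0.89, and its NMDA difference was -0.01 both in MEK experiment 2 and in NOS experiment 1. Clip2, a protein of growing microtubule ends, was at 0.17 with NMDA against 0.01 with control in MEK experiment 2, and at 0.05 and -0.10 with NMDA against 0.14 and 0.09 with control in the NOS set. Its 3 differences, 0.15, -0.09 and -0.19, had no common direction.

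**Figure D2:**
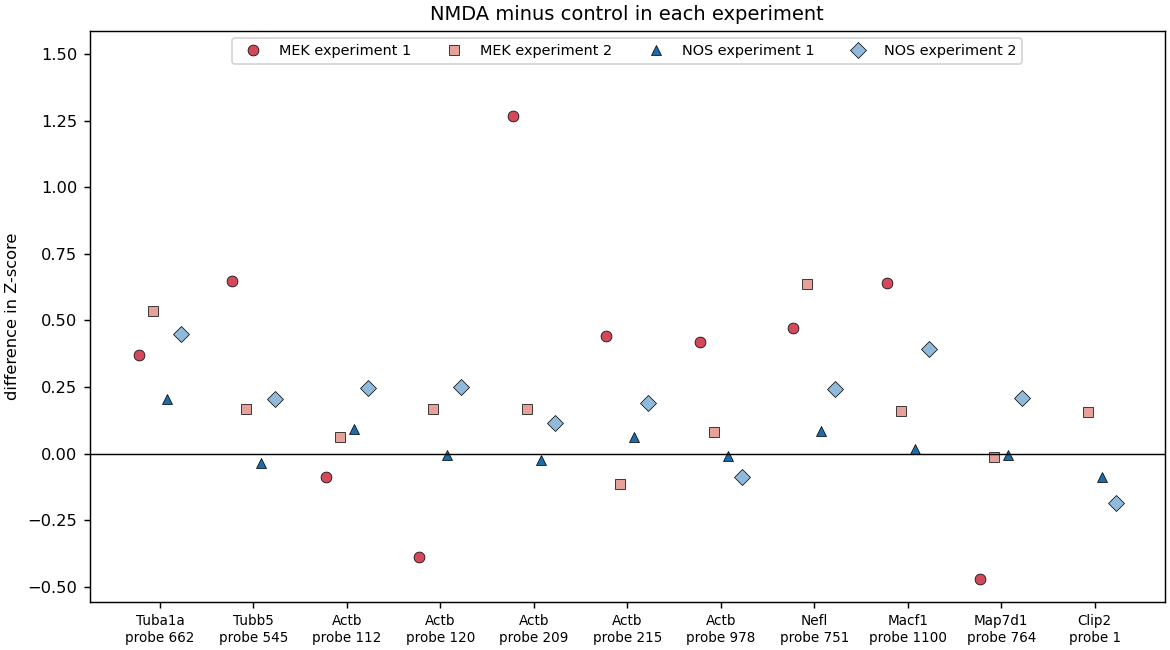
NMDA minus control in Z units (vertical axis) for each cytoskeletal probe (horizontal axis), with 1 symbol for each of the 4 experiments. Tuba1a, Nefl and Macf1 have all symbols above 0. The point of MEK experiment 1 is the farthest from 0 for Actb probes 120 (-0.39), 209 (1.27), 215 (0.44) and 978 (0.42). The same holds for Tubb5 (0.65), Macf1 (0.64) and Map7d1 (-0.47).

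The 5 Actb probes did not give 1 answer for beta-actin, the main actin of non-muscle cells and a frequent loading control. With NMDA against control in MEK experiment 1 they differed by -0.09 (probe 112), -0.39 (probe 120), 1.27 (probe 209), 0.44 (probe 215) and 0.42 (probe 978). In MEK experiment 2 the same probes were at 0.06, 0.17, 0.17, -0.11 and 0.08. In NOS experiment 1 all 5 lay within -0.03 and 0.09, and in NOS experiment 2 within -0.09 and 0.25. Apart from MEK experiment 1 the largest Actb difference was thus 0.25. Over the 12 rat arrays, the 10 pairs of Actb probes had Pearson r of -0.66 to 0.67, 5 of them below 0, and without the moved control -0.84 to 0.60, 7 of them below 0. Within experiments the 10 pairs ran from -0.78 to 0.94, 4 of them below 0, with the highest r for probes 209 and 978 (0.94), 209 and 215 (0.87) and 215 and 978 (0.73). Without the moved control these 3 pairs were at 0.28, 0.04 and -0.74, and the 10 pairs ran from -0.74 to 0.66, 3 of them below 0. These r share arrays and are given as a description. Probe 209 was at 0.96 with NMDA against -0.31 with control in MEK experiment 1 and at 0.85 with NMDA against 0.68 with control in MEK experiment 2. It was at 1.01 with NMDA against 1.04 with control in NOS experiment 1, but at 0.07 with NMDA against -0.04 with control in NOS experiment 2. Probe 978 had the narrowest range outside the moved control: its 11 other rat values lay within 0.75 to 0.91, and the control was at 0.41. Whether all 5 clones report Actb alone was not tested, since the probe sequences are not used here.

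The other cytoskeletal genes of the list named on the array were 11 genes with 1 probe each. With NMDA, 1 of 11 was higher in all 4 experiments, beside 10.2% of all probes, and 0 were lower in all 4, beside 4.60%. Their limma values over both sets ran from -0.32 for Dpysl5 (SE 0.22), a growth cone protein, to 0.36 for Tpm1 (SE 0.66), an actin-binding tropomyosin, and 0 of 11 passed (adjusted p = 0.9997 for each). Tpm1 was the gene higher in all 4 experiments, by 0.72, 0.18, 0.05 and 0.51. Limma passed 0 of 1152 probes for NMDA over both sets, and 11 probes (0.955%) had an unadjusted p under 0.05. In the MEK set alone 0 passed and 16 (1.39%) had an unadjusted p under 0.05, and in the NOS set alone these counts were 0 and 2 (0.174%), with no member among any of them. Of the 13 probes of cell type markers, 2 were higher with NMDA in all 4 experiments (1 of 2 Uchl1 probes and 1 of 2 Col1a2 probes). None was lower in all 4. The shares of all probes were again 10.2% and 4.60%. In the order MEK 1, MEK 2, NOS 1 and NOS 2, the neuronal markers differed by 1.18, 0.27, 0.34 and 0.31 and by 0.63, 0.44, -0.0050 and 0.67 on the Uchl1 probes. Stmn2 was at 0.32, -0.15, 0.12 and 0.70, and Hpca at 0.04, -0.05, -0.14 and -0.91. The neuronal markers thus did not share a direction, and neither did the astrocyte ones. Gfap was at -0.48, -0.02, 0.18 and 0.07 on 1 probe and at 0.22, -0.05, 0.19 and 0.65 on the other, and Glul at -0.24, 0.20, -0.0041 and -0.06. The microglial marker Csf1r was at 0.02, -0.18, 0.08 and 0.49. Of the 5 endothelial and fibroblast probes, those of Col1a2 were at 0.27, 0.33, 0.04 and 0.40 and at -0.03, 0.12, -0.16 and 0.93, those of Fn1 at -0.44, 0.06, 0.04 and 0.31 and at 0.15, -0.82, 0.35 and -0.44, and that of Fbn1 at 0.47, 0.37, -0.07 and -0.13. The part of cell type shares in the Tuba1a and Nefl differences was not tested.

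Tuba1a and Nefl, both already described as higher with NMDA in every experiment, followed each other within experiments. Each probe's mean in its experiment was subtracted first. Nefl then correlated with Tuba1a at r = 0.85 over the 12 rat arrays, at 0.93 in the MEK set and at 0.97 in the NOS set (6 arrays each). Leaving the moved control out of the r, but not out of the subtracted means, also gave 0.85. Tuba1a was the only 1 of 1151 other probes with r of at least 0.8 to Nefl, whereas 15 of 1151 reached this for Tuba1a. The arrays share their experiments' means, and the pair was picked for its likeness, so no test is given. With few arrays in each experiment, the common NMDA direction of both genes by itself raises this r. The r is thus in part a restatement of that direction. The raw values over the 12 arrays gave r = -0.31, because from NOS experiment 1 to NOS experiment 2 Tuba1a was higher by 0.79 and Nefl lower by 0.48. The named gene closest to Tuba1a was Tmpo (r = 0.93), followed by Nefl and then Zfp763 (0.83). For Nefl the order was Tuba1a, Tmpo (0.75) and Etnk1 (0.75).

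**Figure D3:**
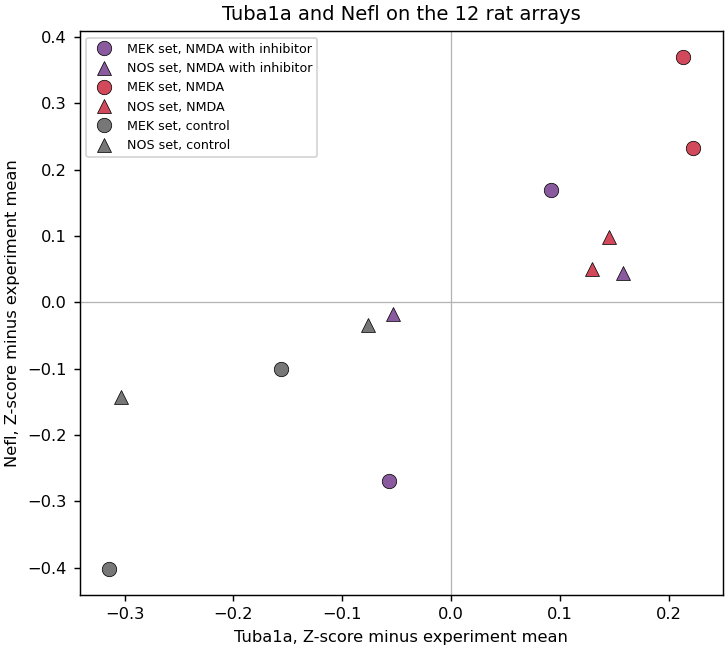
Nefl (vertical axis) against Tuba1a (horizontal axis) on the 12 rat arrays, both as Z-scores minus the mean of the experiment, with circles for the MEK set, triangles for the NOS set and a colour for each treatment. All 4 NMDA arrays lie above 0 on both axes and all 4 control arrays below 0, and r is 0.85. The NMDA direction for which both genes were described contributes to this r.

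The other members had many probes with a like pattern: of all probes, 10.1% had r of at least 0.8 within experiments to Macf1, 8.95% to Map7d1, 8.86% to Tubb5, 6.86% to Actb probe 978 and 3.82% to Clip2, so a high r to them was common. Actb probe 978 was taken for Actb as the probe of the highest mean score, which decides only which probe is shown and ranks no levels. Its closest probes among those with a single symbol were Rps6 (r = 0.98), Bsg (0.97) and Nlgn2 (0.95). They were Klhl23 (0.98), Eef2 (0.97) and Lsm14a (0.95) for Macf1, Sh3bp4 (0.96), Tpm1 (0.96) and Nhlrc1 (0.95) for Tubb5, and Pkm (0.94), Map2k2 (0.94) and Zfp36l2 (0.93) for Map7d1, each over 12 arrays. For Clip2 they were Acta2 (0.96), Prnp (0.94) and Mcrs1 (0.93) over 11 arrays. The r were also taken without the moved control, whose value stayed in the subtracted experiment means. The highest of the 3 was then 0.94 for Actb probe 978, 0.97 for Macf1, 0.92 for Tubb5 and 0.87 for Map7d1. These r therefore do not show how far the likenesses rest on that array. Within experiments Map7d1 ran against Actb probe 978 (r = -0.94) and probe 209 (r = -0.88), while Tubb5 ran with Actb probe 209 (r = 0.93). In the moved control Map7d1 is high and Actb probe 209, Actb probe 978 and Tubb5 are low, and the part of that array in these r was not tested pair by pair.

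The inhibitor arrays asked whether blocking MEK or nitric oxide synthase altered the values seen with NMDA. Nefl was lower with inhibitor than with NMDA alone in all 4 experiments, but by more than 0.07 in only 1 of them. It was the only one of 11 member probes lower in all 4, beside 4.08% of all probes, and 0 were higher in all 4, beside 7.20%. Without MEK experiment 1 the count of lower probes was 2 of 11, Nefl and Actb probe 112, beside 14.2% of all probes. No member passed limma in either inhibitor comparison. These differences share their NMDA arrays with those of NMDA against control, so a high score on an NMDA array by itself pushes them down.

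With PD98059 and NMDA, Nefl was at -1.50 in MEK experiment 1 against -0.86 with NMDA alone, a difference of -0.64 that only 0.608% of all probes fell below. In MEK experiment 2 it was at -0.99 with PD98059 and NMDA against -0.93 with NMDA alone, a difference of -0.06. The PD98059 array of experiment 1 thus lay below the control of that experiment (-1.33), and that of experiment 2 well above its control (-1.56). Tuba1a was at 0.19 with PD98059 and NMDA against 0.46 with NMDA alone in experiment 1, and at 0.56 with PD98059 and NMDA against 0.69 with NMDA alone in experiment 2. Of all probes, 6.77% and 8.59% had differences below its -0.27 and -0.13. Over the MEK set limma gave -0.35 (SE 0.31) for Nefl and -0.20 (SE 0.39) for Tuba1a, with adjusted p = 0.9999 for each. With the experiment as a block the SEs were 0.18 and 0.16, with adjusted p = 0.9998 for each. Of 11 member probes, 3 were lower with PD98059 in both experiments (Tuba1a, Nefl and Map7d1), beside 12.5% of all probes, and 1 was higher (Actb probe 978), beside 24.4%. The Map7d1 difference in experiment 2 was only -0.00017. Limma passed 0 probes for PD98059 with NMDA against NMDA, and 0 had an unadjusted p under 0.05.

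With nitroarginine and NMDA, Nefl was at -1.14 in NOS experiment 1 against -1.07 with NMDA alone, and at -1.56 in experiment 2 against -1.50 with NMDA alone. Tuba1a was at 0.54 with nitroarginine and NMDA against 0.72 with NMDA alone in experiment 1, and at 1.53 with nitroarginine and NMDA against 1.52 with NMDA alone in experiment 2. The Tuba1a experiments therefore did not share a direction. Limma gave -0.06 (SE 0.31) for Nefl and -0.08 (SE 0.39) for Tuba1a, with adjusted p = 0.9978 for each. With the experiment as a block the SEs were 0.18 and 0.16, with adjusted p = 0.992 and 0.977. Of 11 member probes, 4 were lower with nitroarginine in both experiments (Actb probes 112, 120 and 215, and Nefl), beside 31.4% of all probes, and 1 was higher (Macf1, by 0.11 and 0.06), beside 29.5%. Clip2 was at -0.47 with nitroarginine and NMDA against -0.10 with NMDA alone in experiment 2, and at 0.16 with nitroarginine and NMDA against 0.05 with NMDA alone in experiment 1. Limma passed 0 probes for nitroarginine with NMDA against NMDA, and 1 (0.0868%), not a member, had an unadjusted p under 0.05. PD98059 and nitroarginine were given in different sets whose doses are not in the labels, so their differences are set side by side only.

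**Figure D4:**
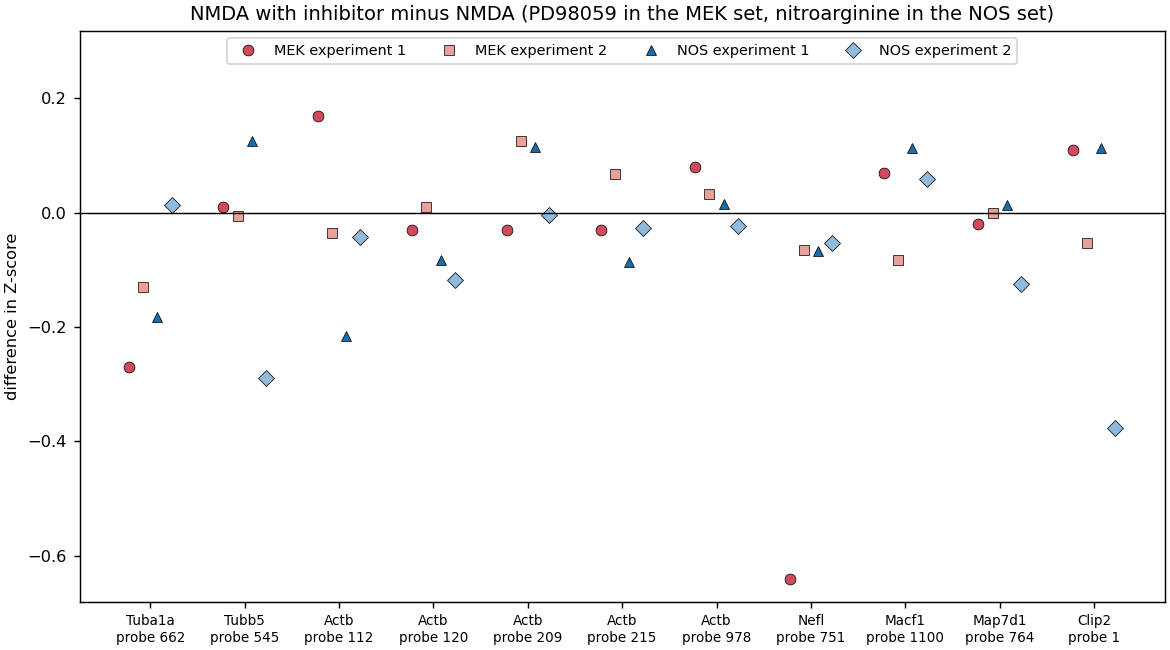
NMDA with inhibitor minus NMDA alone in Z units (vertical axis) for each cytoskeletal probe (horizontal axis), with PD98059 as the inhibitor in the MEK set and nitroarginine in the NOS set. Nefl has all 4 symbols below 0, at -0.64 in MEK experiment 1 and within -0.07 to -0.05 in the others.

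Set against control, NMDA with inhibitor gave higher values in all 4 experiments for 3 of 10 member probes, Tuba1a, Macf1 and Actb probe 209, beside 12.3% of all probes, and lower values for 0, beside 7.04%. The limma values for PD98059 with NMDA against control were 0.25 (SE 0.39) for Tuba1a and 0.20 (SE 0.31) for Nefl (adjusted p = 0.9989 for each). For nitroarginine with NMDA against control they were 0.24 (SE 0.39) and 0.10 (SE 0.31), with adjusted p = 0.9999 for each. With the experiment as a block the SEs were 0.16 for Tuba1a and 0.18 for Nefl. Adjusted p was then 0.531 and 0.705 for PD98059, and 0.887 and 0.969 for nitroarginine. These comparisons share their control arrays with those of NMDA alone, so the values are not independent of them.

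Ordered by group mean, Tuba1a ran from 1.12 ± 0.57 with NMDA in the NOS set through 1.03 ± 0.70 with nitroarginine and NMDA and 0.79 ± 0.40 in the NOS control to 0.57 ± 0.16 with NMDA in the MEK set, 0.37 ± 0.26 with PD98059 and NMDA and 0.12 ± 0.04 in the MEK control (SD, n = 2 each). The largest step in this order, 0.25, is that between the PD98059 arrays and the MEK control. Nefl ran from -0.89 ± 0.05 with NMDA in the MEK set through -1.25 ± 0.36, -1.29 ± 0.31 and -1.35 ± 0.30 (PD98059 with NMDA, NMDA in the NOS set, nitroarginine with NMDA) to -1.45 ± 0.17 in the MEK control and -1.45 ± 0.42 in the NOS control. Its largest step was the first, 0.35. In neither order did a step exceed the wider SD of the groups it separates.

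In the NOS set the 2 experiments differed by more than the treatments did. Averaged over the 3 treatments, experiment 2 minus experiment 1 was -1.02 for Actb probe 209, -0.88 for Macf1, 0.79 for Tuba1a, -0.62 for Tubb5, -0.48 for Nefl and -0.40 for Map7d1. For 8 of the 11 member probes this shift was larger than the range over treatments in both experiments, as it was for 64.9% of all probes. The 3 exceptions were Actb probes 112 (0.19) and 978 (-0.05) and Clip2 (-0.28). Members were not shifted more than the rest of the array: the median size of the shift was 0.401 for the member probes and 0.624 for all probes. The cause of the shift was not tested.

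**Figure D5:**
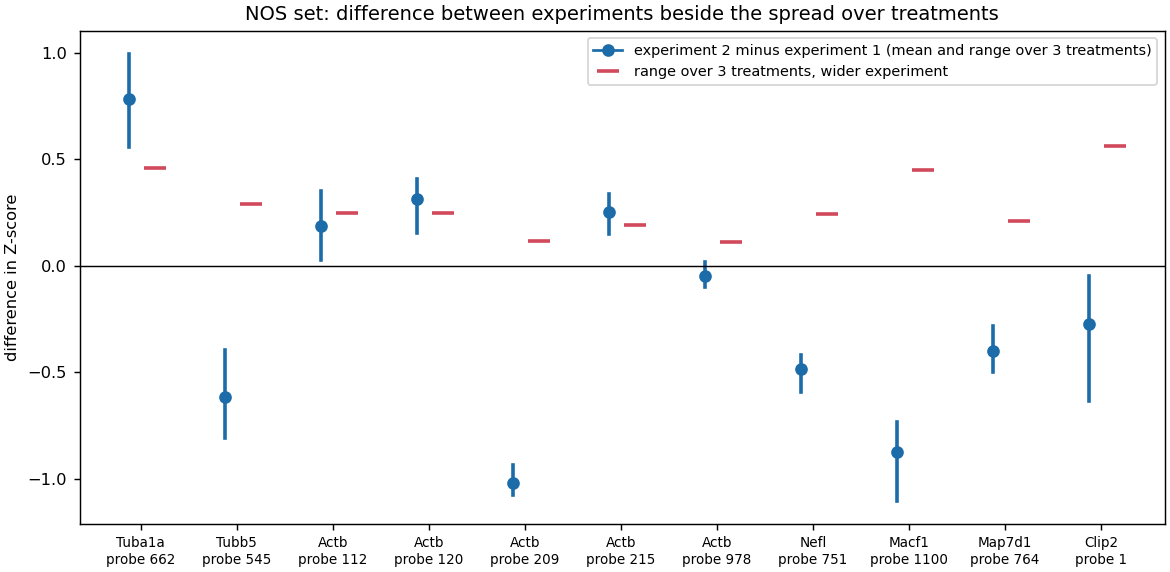
NOS experiment 2 minus NOS experiment 1 in Z units (vertical axis) for each cytoskeletal probe (horizontal axis), as the mean (blue point) and range (blue line) over the 3 treatments, beside the wider of the ranges over treatments (red dash). Tuba1a lies at 0.79 and Actb probe 209 at -1.02, each farther from 0 than its red dash.

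In mouse cortex the nNOS knockout and its littermate gave close values for most members, with 1 array each and so no test. Tubb5 was at 0.46 in the knockout against 0.11 in the wild type, a difference of 0.36, and Macf1 was at 0.24 in the knockout against -0.09 in the wild type, a difference of 0.34. Differences as large in either direction were seen for 6.68% and 7.90% of all probes. The other members differed by -0.17 (Actb probe 215) to 0.15 (Clip2), with Tuba1a at -0.81 in the knockout against -0.78 in the wild type and Nefl at -0.88 in the knockout against -0.81 in the wild type. No member probe passed the size of 0.5 Z units used to call a difference here (0 of 11), beside 0.781% of all probes higher in the knockout and 1.56% lower. Among the other cytoskeletal genes, Dpysl5 was past it, at -0.63. The 5 Actb probes were again split, at 0.08 and 0.04 for probes 209 and 978 and at -0.13, -0.10 and -0.17 for probes 112, 120 and 215.

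The 2 cortices and the rat cultures differ in species, age and tissue state at once, so a difference between them cannot be told apart from probe mismatch. Tuba1a was below all 12 rat values in both cortices (-0.81 and -0.78, against 0.09 to 1.53 in the cultures), and Nefl was near the top of its rat range or above it (-0.88 and -0.81, against -1.74 to -0.86). Actb probe 120 was above all 12 rat values in the wild type (0.77, against -0.20 to 0.65) and in the knockout (0.67). Actb probe 112 was below all but 1 of the rat values in the wild type (-0.20, against -0.22 to 0.30) and below all of them in the knockout (-0.32). The remaining members lay within their rat ranges, except Tubb5 in the wild type (0.11, against 0.17 to 1.02). Actb probes 215 and 978 did so only through the moved control (-0.07 and 0.41). For probe 215 both cortices (0.06 in the knockout and 0.23 in the wild type) lay below its 11 other rat values, 0.27 to 0.63. For probe 978 both cortices (0.59 in the knockout and 0.55 in the wild type) lay below its 11 other rat values, 0.75 to 0.91.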

How the data were processed

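The deposited values are scores: each column has a mean of 0 over 1152 probes and an SD of 0.857 to 0.999, so the authors had transformed each array to Z-scores. The scale before that step, the background correction and any filter are not given in the sources used here, and higher scores were read as brighter spots. A single symbol was given for 384 probes by the platform annotation, several for 6 and none for 762. The 7 members were all found in the rat gene table, as were 362 of the 384 probes. Each sample had a column of Z-scores, and no other measure per sample was used. The MEK experiment 1 control column was moved down by 1 row, which took its correlation with the median array to 0.823, against 0.103 as deposited.

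Differences were tested with limma 3.58.1 in R 4.3.3, fitting 6 group means to the 12 rat arrays (6 residual degrees of freedom). Tests were two-sided, p-values were adjusted by Benjamini-Hochberg over all 1152 probes, and the threshold was 0.05. The design had foreseen log2 values, and the fit was run on the scores as deposited. Clip2 was fitted over 11 arrays, with 1 MEK control. Other steps used Python 3.11.15, numpy 2.4.6, pandas 2.3.3 and matplotlib 3.10.9. The script was tested on simulated data. Named genes were all probes of the 7 members, the 3 single-symbol probes of other genes most like each member, and a list of other cytoskeletal genes. The members and lists were chosen with earlier results of these data known. Experiment numbers in the labels pair the arrays within a set. The deviations of same-numbered arrays had r of 0.874 to 0.930 for the NOS set, and of -0.145 to 0.0726 for the MEK set. Alternatives were the column as deposited, the experiment as a replicate block, each array left out, quantile normalization, median centring, division by the SD, a filter on dim probes, trend and robust moderation, a running median over 25 probes removed, and NOS experiment 2 left out. Depth does not apply to arrays, and their number limits the precision.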

Additional observations from a re-analysis of the deposited data

Results flagged for a closer look

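Actb probe 978 had opposite signs in the 2 sets for NMDA against control, with 0.42 and 0.08 in the MEK experiments and -0.01 and -0.09 in the NOS experiments. The NMDA difference in the NOS set minus that in the MEK set was -0.30 Z units (SE 0.30), which did not pass in limma (adjusted p = 0.9994). The MEK experiment 1 value rests on the control column that was moved, where this probe was at 0.41, against 0.75 to 0.91 on the other rat arrays.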

How the results depend on the processing

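No member probe was called in any of 2178 values recomputed over the rat contrasts and settings, and the lowest adjusted p of a member was 0.0976 (Nefl, NMDA in the MEK set). Of these values, 197 had another sign than the designed one. Tuba1a kept a higher value with NMDA over both sets in 25 of 25 settings (0.19 to 0.59) and Nefl in 24 of 24 (0.07 to 0.51). Within the sets, Nefl ran from -0.03 to 0.78 in the MEK set and from -0.13 to 0.46 in the NOS set, and Tuba1a from -0.07 to 0.73 in the NOS set. Over all probes, limma called 0 in each contrast as designed and with the replicate block, also with MEK set control 1 left out or the PD98059 arrays crossed, a pairing added after seeing the data because the NMDA and PD98059 deviations ran at -0.145. With the block, unadjusted p under 0.05 was reached by 166 probes for NMDA in the MEK set, 57 in the NOS set and 128 over both. Over both sets these included Tuba1a (limma unadjusted p = 0.0062), Nefl (0.022), Macf1 (0.042) and Actb probe 209 (0.045). In the MEK set they included Actb probe 209 (0.012), Nefl (0.014), Tuba1a (0.017) and Tubb5 (0.042), and in the NOS set no member. None of these members passed after adjustment. With MEK control 1 and NOS experiment 2 left out together, added after seeing the data, 82 probes were called for NMDA in the MEK set and 76 for PD98059 with NMDA against control, none of them a member. In that fit the MEK control is 1 array, whose spread is taken to equal that of the remaining groups. Leaving out 1 array at a time gave 0 to 1 calls for NMDA in the MEK set, NMDA over both sets, PD98059 with NMDA against control, and the difference between sets, the 1 call each coming without MEK control 2. For knockout against wild-type cortex, 27 probes passed 0.5 Z units and 0 passed 1 Z unit, and no member passed either. Of 11 member probes, those lower with inhibitor than with NMDA in every experiment numbered 1 as designed and 2 without MEK experiment 1. The filter on dim probes left Nefl out, hence its 24 settings, and its rat scores lay at percentiles 1.65 to 24.9 of their arrays. The probe sequences and the signal over background were not used here, so members near background cannot be set apart.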
